A study of Mus musculus with 7 samples.

Results

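The cytosolic heat shock proteins are the chaperones that bind unfolded protein in the cytosol, and 9 of their genes were followed in the cells of mouse subcutaneous fat: Hspa1a, Hspa1b, Hspa8, Hspb1, Hsp90aa1, Hsp90ab1, Hsph1, Dnaja1 and Dnajb1. They were taken by symbol from the 27998 genes of the deposited feature tables, and all 9 were found. The cells were the stromal vascular fraction, the cells other than adipocytes, of inguinal subcutaneous fat from female C57BL/6N mice without any stated transgene or treatment, and RNA was counted by single-cell 10x Genomics 3′ v3 sequencing. The young group held 4 libraries from mice aged 11 to 12 weeks and the old group 3 libraries from mice aged 18 months. Before sequencing, the minced tissue of both groups was digested with collagenases in a warm shaking incubator and red cells were lysed on ice, per the labels. Whether a library holds 1 mouse or several is not stated, so the p-values below measure the spread between libraries only.

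As background, Hsp70 proteins hold and release hydrophobic stretches of client proteins in cycles of ATP hydrolysis. J-domain proteins (Dnaja1, Dnajb1) deliver clients to them and start the hydrolysis, and Hsph1 (Hsp110) exchanges their nucleotide. Hsp90 proteins (Hsp90aa1, Hsp90ab1) take over later folding steps of kinases and steroid receptors, and the small heat shock protein Hspb1 (Hsp25 in mice) holds unfolding proteins without ATP. Hspa8 and Hsp90ab1 are the constitutive forms, while Hspa1a, Hspa1b, Hsp90aa1, Hsph1 and Dnajb1 are known to be induced by heat shock factor 1 (HSF1) under heat or proteotoxic stress. HSF1 binds inverted repeats of the unit nGAAn. Dissociation of tissue is a known inducer of both heat shock and immediate early genes in single-cell studies.

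The genes' positions are those of the mm10 build. Hspa1a (ENSMUSG00000091971, chromosome 17, 34969190 to 34972156, minus strand) and Hspa1b (ENSMUSG00000090877, chromosome 17, 34956436 to 34959238, minus strand) are neighbouring genes of 1 exon each. Hspb1 (ENSMUSG00000004951) lies on chromosome 5 from 135887919 to 135889563 and Hsph1 (ENSMUSG00000029657) on the same chromosome from 149614287 to 149636376. Dnaja1 (ENSMUSG00000028410) spans 40722150 to 40737149 on chromosome 4, Dnajb1 (ENSMUSG00000005483) 83608193 to 83612653 on chromosome 8 and Hspa8 (ENSMUSG00000015656) 40800984 to 40810087 on chromosome 9. Hsp90aa1 (ENSMUSG00000021270) spans 110690605 to 110702728 on chromosome 12, and Hsp90ab1 (ENSMUSG00000023944) 45567775 to 45573271 on chromosome 17. Hspa1a and Hspa1b share much of their sequence: 49.3% of the 90-base windows of the Hspa1a transcript occur in Hspa1b. In the last 500 bases, from which 3′ libraries mostly read, 0% of the windows were shared. Reads from farther upstream could still have been split or lost between them, so each of their values carries that uncertainty.

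RefSeq promoter windows, from 250 bases before to 50 bases after the gene start (GRCm38.p6), were found for 6 of the 9 genes. They are shown because the inducible members are known targets of HSF1, and capitals mark each match to a pair of inverted units (GAANNTTC or TTCNNGAA, either strand, overlapping matches merged). Hspa8, Hsp90aa1 and Hsp90ab1 had no entry. The Hspa1a (chr17:34972107-34972406, minus strand), Hspa1b (chr17:34959189-34959488, minus), Hspb1 (chr5:135887669-135887968, plus), Hsph1 (chr5:149636287-149636586, minus) and Dnaja1 (chr4:40722218-40722517, plus) windows read, 5′ to 3′:
Hspa1a: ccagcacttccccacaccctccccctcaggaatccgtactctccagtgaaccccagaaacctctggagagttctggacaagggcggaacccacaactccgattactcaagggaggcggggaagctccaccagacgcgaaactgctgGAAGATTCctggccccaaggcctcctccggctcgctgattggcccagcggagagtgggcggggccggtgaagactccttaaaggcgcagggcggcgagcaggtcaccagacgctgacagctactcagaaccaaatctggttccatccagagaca
Hspa1b: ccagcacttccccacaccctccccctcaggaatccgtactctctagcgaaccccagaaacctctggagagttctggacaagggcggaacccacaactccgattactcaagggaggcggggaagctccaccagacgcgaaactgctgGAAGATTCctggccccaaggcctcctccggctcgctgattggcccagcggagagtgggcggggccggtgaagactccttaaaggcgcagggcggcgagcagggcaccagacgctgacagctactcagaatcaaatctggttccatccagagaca
Hspb1: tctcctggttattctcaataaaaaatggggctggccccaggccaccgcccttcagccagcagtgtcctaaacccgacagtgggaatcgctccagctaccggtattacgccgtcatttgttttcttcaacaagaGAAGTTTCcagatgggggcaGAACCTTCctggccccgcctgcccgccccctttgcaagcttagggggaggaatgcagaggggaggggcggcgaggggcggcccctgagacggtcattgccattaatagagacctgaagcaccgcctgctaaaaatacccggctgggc
Hsph1: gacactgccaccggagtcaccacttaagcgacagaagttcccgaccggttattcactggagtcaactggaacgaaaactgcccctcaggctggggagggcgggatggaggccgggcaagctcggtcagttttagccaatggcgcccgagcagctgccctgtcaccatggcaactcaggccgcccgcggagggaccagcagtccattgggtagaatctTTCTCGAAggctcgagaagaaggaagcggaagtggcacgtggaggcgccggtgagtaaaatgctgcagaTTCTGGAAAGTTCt
Dnaja1: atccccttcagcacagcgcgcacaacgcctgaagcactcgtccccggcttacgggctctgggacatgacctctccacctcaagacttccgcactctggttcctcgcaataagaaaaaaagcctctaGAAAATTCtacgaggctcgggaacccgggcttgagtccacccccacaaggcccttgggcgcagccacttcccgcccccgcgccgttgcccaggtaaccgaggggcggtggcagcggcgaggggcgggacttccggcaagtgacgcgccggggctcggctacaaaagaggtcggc

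Hspa1a and Hspa1b each held the pair 104 bases before the gene start, and their windows differed at 4 of 300 bases. Hspb1 held 2 pairs, 117 and 97 bases before the start. In the first of 2 Hsph1 windows a pair lay 33 bases before the start, and overlapping pairs 36 and 41 bases after it formed the longer 3-unit motif (GAANNTTCNNGAA or TTCNNGAANNTTC). In the first of its RefSeq windows Dnaja1 held 1 pair, 124 bases before the gene start, and neither Dnajb1 window held one. The pair occurs in 15.1% of the 32851 promoter windows of that table and the 3-unit motif in 0.603%. A match describes these letters only: binding was not measured here.

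The deposited matrices held 45514 barcodes, of which 37463 cells were kept, 2794 to 6917 per library. Total counts were 52336665 to 99516882 unique molecular identifiers (UMIs) per library, and the median kept cell held 9276 to 13714.5 UMIs in the young and 5986 to 7898 in the old libraries. Pairs of libraries shared 4 to 23 barcodes. Cells were grouped without the 9 genes or 8 related chaperone and stress lists, which left 95 genes out of the clustering. Names stand for X-like cells and were rebuilt from markers: of 41 clusters 7 stayed unnamed, and 16 classes were named. The main classes were progenitors, the fibroblast-like stroma that holds adipocyte precursors (11979 cells), macrophages (6824), endothelial cells (4474), T cells (4333) and B cells (2049), and their own marker lists had 0 markers at 0 in each. Levels are CPM, the UMIs of a gene per 1000000 UMIs of all genes summed over a class in a library. Libraries with fewer than 20 cells of a class were left out. Neutrophils and plasma cells were therefore seen in the 3 old libraries only, and Schwann cells in 3 young libraries only.

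Young replicate 1 stood apart from the other 6 libraries. It gave 37 of the 45 lowest values of a heat shock gene in a main class, and its cells were more often endothelial (28.3% against 4.01% to 15.3% elsewhere) and epithelial (18.2% against 1.54% to 6.34%). Its summed heat shock counts and its immediate early counts were low together, as given below. The age summaries over the 9 genes in the main classes, in pericytes and smooth muscle and in all cells are given with and without it.

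**Figure D1:**
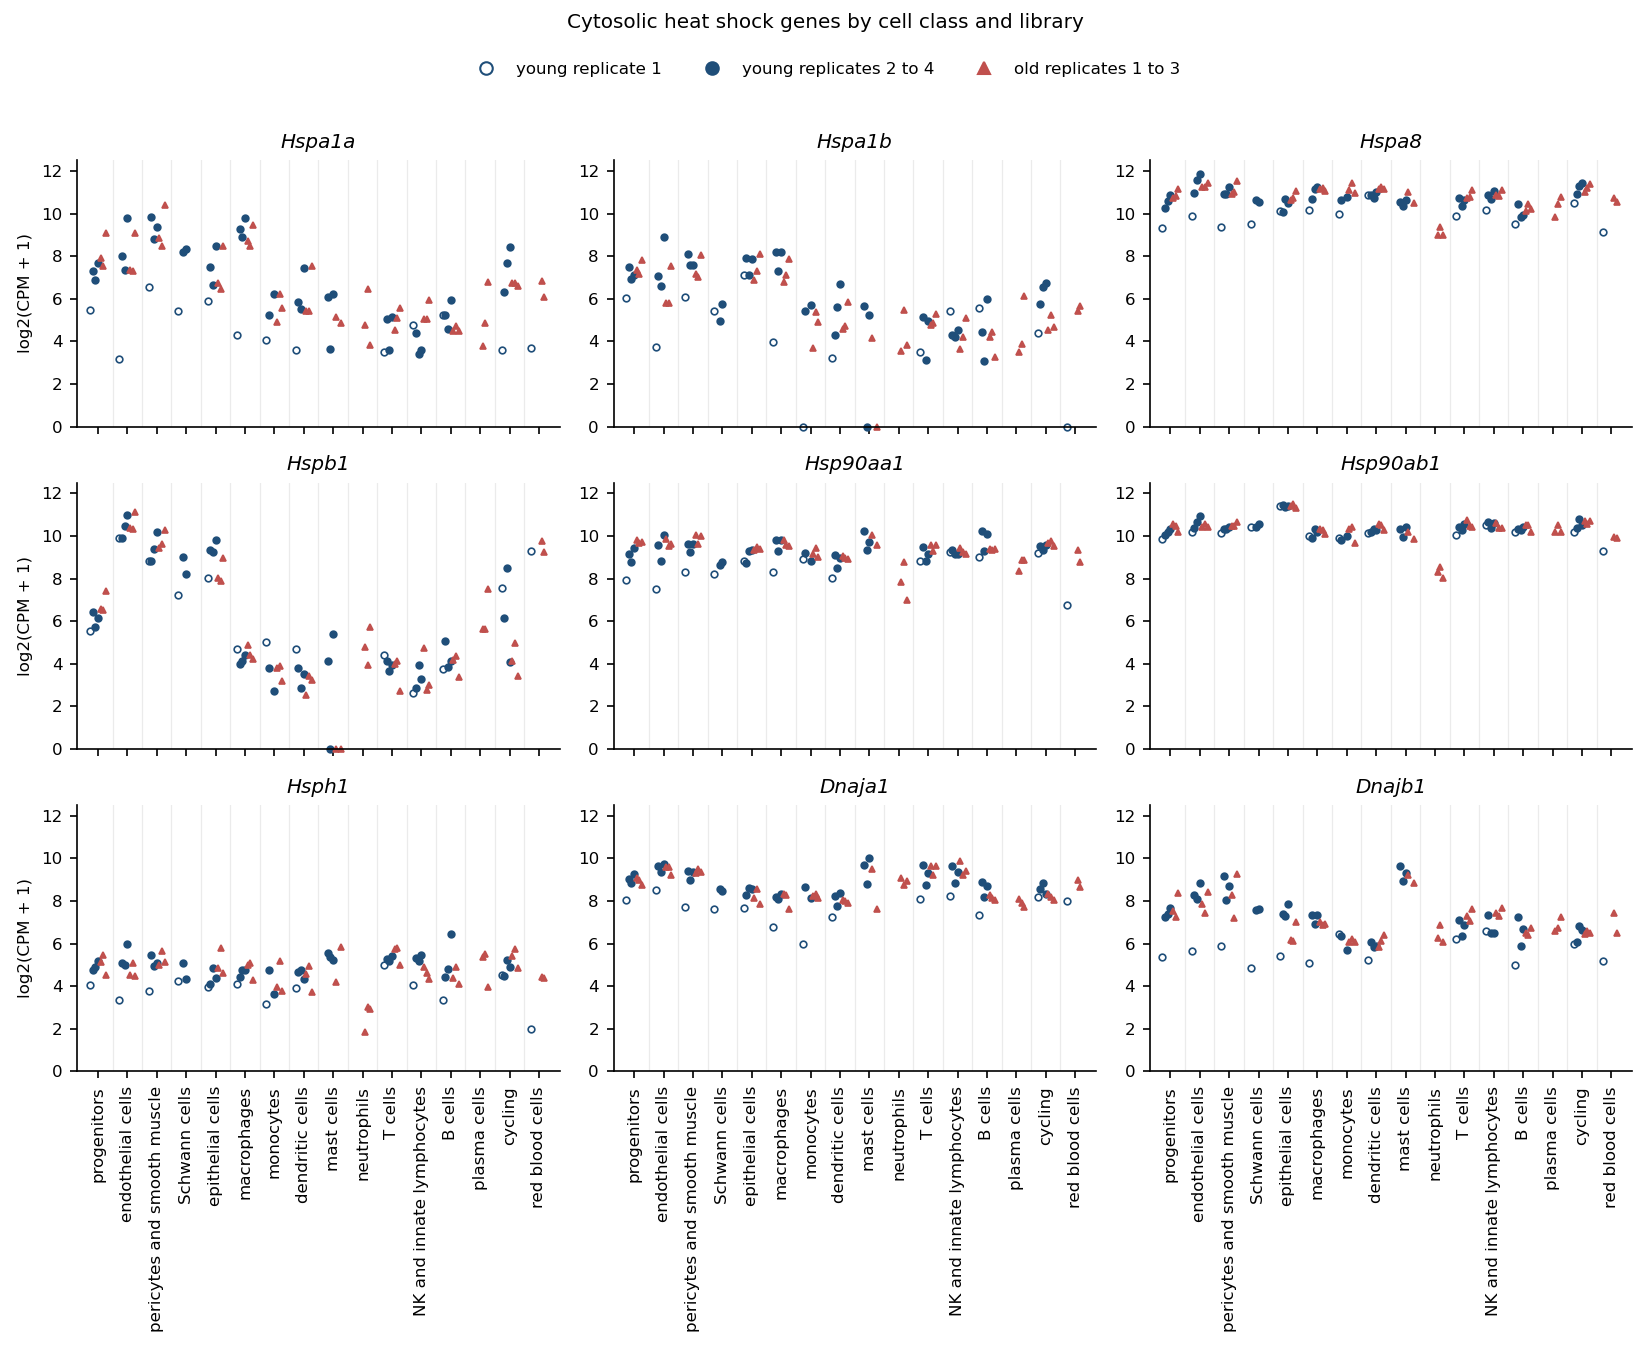
Level of each heat shock gene, as log2(CPM + 1), in the 16 cell classes, with 1 point per library of at least 20 cells (open circle young replicate 1, filled circles young replicates 2 to 4, triangles old replicates). Hspb1 and Hspa1a spread widely over the classes, Hsp90ab1 is set apart in epithelial cells (2694 CPM at the median) and neutrophils (319 CPM, old libraries only), and the open circle is often the lowest point.

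Hspa1a, the stress-inducible Hsp70, was highest in macrophages and in pericytes and smooth muscle and lowest in lymphocytes, and it varied most between libraries. In macrophages it measured 18.8, 623, 477 and 887 CPM in the young libraries and 418, 351 and 699.5 CPM in the old libraries. Young replicate 1 lay far below the other 6 libraries, and the ages overlapped. Pericytes and smooth muscle, the mural cells of vessels, had 93.4, 919, 440.1 and 664 CPM in the young libraries and 460.4, 352 and 1344 CPM in the old libraries, again with the lowest value in young replicate 1 and overlapping ages. In endothelial cells the values were 7.91, 259.9, 162 and 877 CPM in the young libraries and 164, 154 and 535 CPM in the old libraries. That is a range of 111-fold between libraries, the widest of any heat shock gene in a main class. In progenitors it was 43.3, 155, 118 and 204 CPM in the young libraries and 241, 187 and 541 CPM in the old libraries. The 3 old libraries included the highest, but the lowest old value lay below the highest young one.

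Lymphocytes carried little Hspa1a: T cells had 10.2, 32.6, 11.3 and 34.4 CPM in the young libraries and 22.5, 33.2 and 46.6 CPM in the old libraries, and B cells 36.9, 36.7, 22.7 and 59.8 CPM in the young libraries and 21.1, 25.7 and 21.6 CPM in the old libraries. Young replicate 1 was not the lowest library in B cells. Over the 10 classes not given so far, the medians ran from 26.1 to 289 CPM, with Schwann cells, the glia of peripheral nerves, at 289 CPM (range 41.7 to 318, n = 3) and epithelial cells at 105 CPM (range 59.4 to 360.2, n = 7). In order of median level, the ranges of neighbouring classes over libraries overlapped in 15 of 15 pairs. All 15 pairs also overlapped for Hspa1b, Hspb1, Hsp90aa1, Dnaja1 and Dnajb1, while 14 of 15 pairs overlapped for Hspa8 and Hsph1 and 13 for Hsp90ab1. Classes share libraries and these ranges do not pair them, so overlapping classes can still differ within each library. For Hspa1a the medians of the 5 main classes spanned 18.5-fold.

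Single cells were also compared. To compare cells of different depth, each was thinned to 3000 UMIs and shallower cells were left out. A UMI of Hspa1a was then found in a median 53.9% (range 4.83% to 66.97%, n = 7) of macrophages, 61.2% (range 19.4% to 92.9%, n = 7) of pericytes and smooth muscle, 31.5% (range 10.9% to 51.9%, n = 7) of progenitors and 5.47% (range 3.39% to 10.8%, n = 7) of T cells. Without thinning the libraries ran from 7.90% to 74.6% in macrophages and from 6.06% to 14.6% in T cells. Free RNA can give UMIs in cells that do not express a gene, and its amount was not estimated here. Shares near that of T cells are therefore not read as expression. B cells, NK cells and innate lymphocytes, neutrophils and plasma cells had still lower median levels. The median cell held 4794.5 to 8947.5 UMIs in the T cells of the 7 libraries and 2968 to 9776 in macrophages. In macrophages of young replicate 1 the thinned share was 4.83% (95% Clopper-Pearson interval 1.96% to 9.69%, counting error only), at the level of T cells, while the other 6 libraries gave 48.2% to 66.97%.

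Counts of Hspa1a were uneven among macrophages of 1 library. The variance of the thinned counts over their mean, 1 for pure counting noise, had a median of 3.51 over the libraries (range 1.62 to 10.1), highest in old replicate 3 and young replicate 4. In old replicate 3 the top 10% of macrophages held 57.0% of the Hspa1a counts. Across macrophages, Hspa1a and Hspa1b counts correlated with a median Pearson r of 0.304 (range -0.0519 to 0.605 over 7 libraries), a description over cells that share a library.

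Within macrophages the medians differed between clusters. The largest cluster, marked by Retnla and Ccl8, had a median Hspa1a of 641 CPM (range 19.95 to 1203) and another 705 CPM (range 13.5 to 1404), whereas the cluster marked by Lyz1 and Ccl9 had 180.0 CPM (range 83.3 to 257). These ranges over libraries overlapped. Among progenitor clusters, the one marked by Postn, Enpp2 and Mgp had 413 CPM (range 57.4 to 828) and the one marked by Pi16 and C3, genes of interstitial progenitors, had 78.7 CPM (range 20.2 to 141).

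Hspa1b, the second inducible Hsp70, had its highest medians in pericytes and smooth muscle, epithelial cells, macrophages and progenitors. Other myeloid classes were low, with monocytes at 34.4 CPM and dendritic cells at 25.0 CPM. It measured 63.7, 178, 122 and 138 CPM in the young libraries and 161, 140.0 and 227 CPM in the old libraries in progenitors. Macrophages had 14.8, 293, 155 and 295 CPM in the young libraries and 108, 137 and 235 CPM in the old libraries, and the ages overlapped in both classes. Endothelial cells had 12.2, 135, 95.01 and 483 CPM in the young libraries and 55.4, 55.1 and 186 CPM in the old libraries, so that young replicate 4 alone exceeded every other library more than 2-fold. In epithelial cells Hspa1b was 139, 241, 139 and 231 CPM in the young libraries and 116, 159 and 277 CPM in the old libraries, and young replicate 1 was not the lowest there. Pericytes and smooth muscle had 189 CPM (range 65.7 to 270.4, n = 7), and the other 11 classes had medians of 13.1 to 42.2 CPM.

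Hspb1, the small heat shock protein, was highest in vessel cells. Endothelial cells held 953, 949, 1418 and 2028 CPM in the young libraries and 1329, 1285 and 2233 CPM in the old libraries. Every library was at 949 CPM or more, and young replicate 1 was next to the lowest rather than far below. Pericytes and smooth muscle followed with 450.2, 454, 678 and 1144 CPM in the young libraries and 696, 782 and 1257 CPM in the old libraries. They were below endothelial cells in every library. Epithelial cells had 263, 642, 605 and 905 CPM in the young libraries and 261, 232 and 503.6 CPM in the old libraries, and the red blood cell cluster 636 CPM (range 597 to 854, n = 3). Progenitors were lower, at 45.8, 84.1, 51.7 and 69.6 CPM in the young libraries and 92.9, 89.8 and 171 CPM in the old libraries. All 3 old progenitor values lay above all 4 young ones.

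Most immune classes carried little Hspb1: 14.9 to 28.1 CPM in macrophages, 5.68 to 20.4 in T cells and 0 to 41.6 in mast cells. Neutrophils reached 52.5 CPM, and plasma cells, with 48.1 to 179.6 CPM in 3 libraries, overlapped progenitors. Schwann cells had 291 CPM (range 151 to 515, n = 3), and the medians of the other 10 classes ran from 0 to 48.5 CPM. The medians of the main classes spanned 90.2-fold, the widest of the 9 genes, against at most 3.73-fold between libraries within a main class. A thinned endothelial cell held Hspb1 in 94.9% (range 87.4% to 99.4%, n = 7) of cases and a T cell in 3.78% (range 1.18% to 6.33%, n = 7). Unthinned, the shares were 81.2% to 94.7% and 2.32% to 10.6%. The T cell share is again not read as expression.

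Among endothelial clusters the median Hspb1 was 1365 CPM (range 924 to 2300.5) in the largest, marked by the capillary genes Gpihbp1 and Cd36, 1161 CPM (range 869 to 1871) in the one marked by Plvap and 846 CPM (range 569 to 1475) in the third. Epithelial clusters differed more: the one with Krt14 and Acta2, genes of basal and contractile cells, had 648 CPM (range 461 to 1264) and the smallest 101 CPM (range 28.7 to 306).

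Hspa8, the constitutive Hsp70, was present in every class. In progenitors it was 630.4, 1208, 1562 and 1864 CPM in the young libraries and 1685, 1795 and 2271 CPM in the old libraries, and in endothelial cells 958, 2006, 3082 and 3649.5 CPM in the young libraries and 2387, 2423 and 2781 CPM in the old libraries, with young replicate 1 lowest and overlapping ages in both. T cells had 948, 1684, 1326 and 1602 CPM in the young libraries and 1723, 1759 and 2229.9 CPM in the old libraries. Here all 3 old libraries lay above all 4 young ones. Neutrophils, short-lived granulocytes, had the lowest level with 509 to 663 CPM in 3 libraries, all of them old. These values did not overlap B cells of both ages, the next class in the order, at 1113 CPM (range 722 to 1417, n = 7). The other 11 classes had medians of 1383 to 2322 CPM.

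The Hsp90 genes differed little among the 5 main classes, and Hsp90ab1 stood apart in epithelial cells and neutrophils. Hsp90aa1, the inducible form, measured 241, 559, 444 and 681 CPM in the young libraries and 904, 800.4 and 849 CPM in the old libraries in progenitors, where the ages did not overlap. In endothelial cells it was 180.0, 759, 446 and 1052 CPM in the young libraries and 922, 739 and 793 CPM in the old libraries, and young replicate 1 was the lowest by a wide margin. Its medians ran from 392 to 826 CPM over the other 13 classes except neutrophils, which had 227 CPM (range 125 to 439, n = 3). Hsp90ab1, the constitutive form, was steady in the main classes: its libraries differed by at most 1.66-fold within a main class, and the main class medians by 1.20-fold. Epithelial cells were highest with 2503 to 2873 CPM and neutrophils, seen in old libraries only, lowest with 256 to 375 CPM, and neither overlapped its neighbour in the order. The other 14 classes had medians of 962 to 1525 CPM.

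Of the co-factors of Hsp70, the J-domain gene Dnaja1 measured 270.2, 829, 425 and 635 CPM in the young libraries and 801, 598 and 794 CPM in the old libraries in T cells. Endothelial cells had 362 to 856 CPM, macrophages 110.0 to 319.5 CPM, and the other 13 classes medians of 240.4 to 716 CPM. Dnajb1, the inducible J-domain partner, was highest in mast cells, granular tissue cells of allergic responses, at 597 CPM (range 452 to 794, n = 5). It measured 40.2, 151, 164 and 205 CPM in the young libraries and 181, 151 and 333 CPM in the old libraries in progenitors and 48.6, 307, 269 and 457 CPM in the young libraries and 230.1, 174 and 345 CPM in the old libraries in endothelial cells. Young replicate 1 was lowest in both and the ages overlapped. The remaining 13 classes had medians of 58.6 to 314 CPM. Hsph1, the nucleotide exchange factor, was sparse everywhere: 30.6 to 54.7 CPM in T cells, 2.64 to 7.20 CPM in neutrophils and medians of 13.6 to 40.9 CPM in the other 14 classes.

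The next comparison asked whether each main class differed from the mean of the other 4, in 1 edgeR quasi-likelihood fit with library as a block over 13306 genes. A call needed an adjusted p under 0.05 and at least a 2-fold change. It gave 13 calls, all of them on Hspa1a, Hspa1b or Hspb1. Endothelial cells called 2 genes higher, where 18.5% of all genes were, and 0 lower (17% of all genes): Hspb1 rose by 5.70 (SE 0.16, edgeR adjusted p = 2.60e-24) on the log2 scale and Hspa1a by 1.12 (SE 0.27, edgeR adjusted p = 0.000612). Without young replicate 4, endothelial Hspa1a was 0.84 (adjusted p = 0.0118) and no longer reached 2-fold. Its call is against a mean that includes the low lymphocytes. The endothelial median, 164 CPM, lay below macrophages (477 CPM) and progenitors (187 CPM). Macrophages called 2 genes higher (17.1% of all genes), Hspa1a by 2.56 (SE 0.26, edgeR adjusted p = 3.30e-10) and Hspa1b by 1.61 (SE 0.27, edgeR adjusted p = 5.70e-06). They called 1 lower (14.9%), Hspb1 with -1.77 (SE 0.21, edgeR adjusted p = 8.64e-09). That mean includes the high endothelial cells. The macrophage median of Hspb1, 20.1 CPM, lay above T cells (14.7 CPM) and B cells (16.3 CPM).

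Progenitors called 2 genes higher (24.3% of all genes), Hspa1b by 1.65 (SE 0.28, edgeR adjusted p = 3.52e-06) and Hspa1a by 1.30 (SE 0.28, edgeR adjusted p = 0.000124), and 0 lower (15.9%). In lymphocytes 3 genes were lower. T cells called 3 lower (21.7% of all genes): Hspa1a -2.54 (SE 0.37, edgeR adjusted p = 5.10e-07), Hspb1 -2.51 (SE 0.24, edgeR adjusted p = 9.28e-11) and Hspa1b -1.73 (SE 0.36, edgeR adjusted p = 9.70e-05). B cells called the same 3 lower (23.6%), with -2.44 for Hspa1a, -2.24 for Hspb1 and -2.21 for Hspa1b. Neither lymphocyte class called a heat shock gene higher, where 12.8% of all genes were in T cells and 11.3% in B cells. Smaller differences passed the p-value without reaching 2-fold, such as Dnaja1 in macrophages with -0.94 (SE 0.10, edgeR adjusted p = 1.86e-09). Leaving out young replicate 1 kept all 13 calls.

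**Figure D2:**
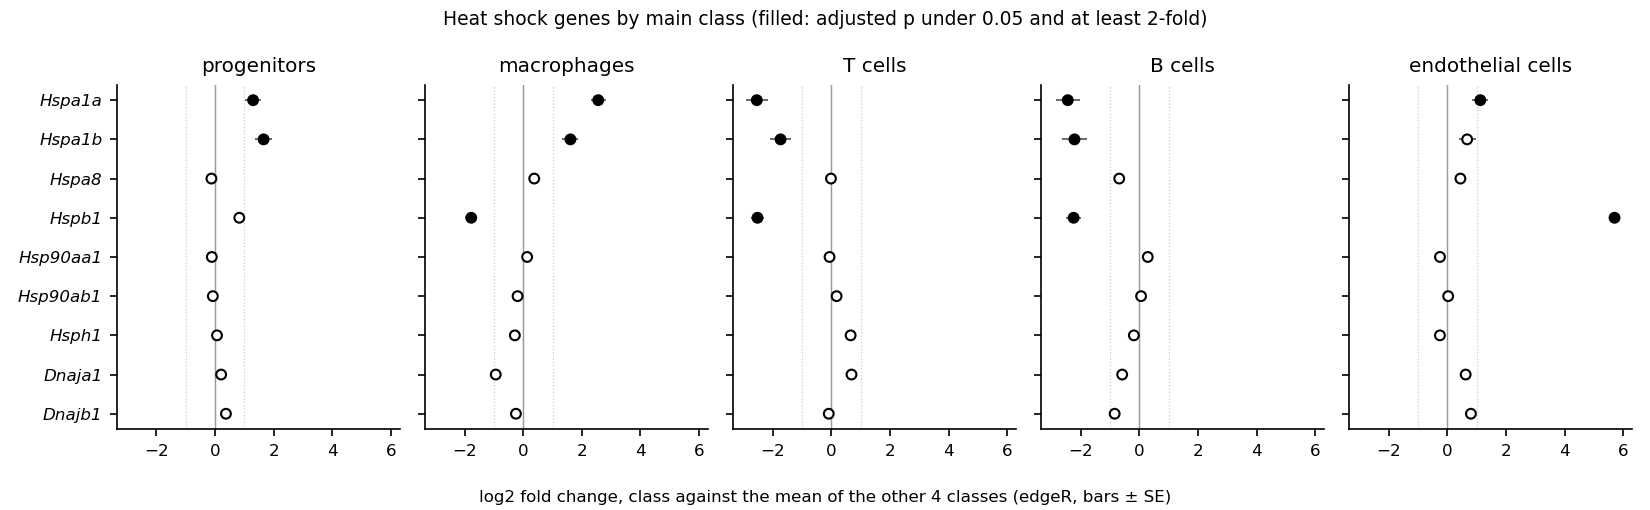
Log2 fold change of each heat shock gene in a main class against the mean of the other 4 classes (x axis, edgeR, bars ± SE over 7 libraries); filled points passed an adjusted p of 0.05 and 2-fold. Hspb1 at 5.70 in endothelial cells lies farthest from 0, while Hspa8, both Hsp90 genes, Hsph1, Dnaja1 and Dnajb1 have no filled point.

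The summed counts of the 9 genes were lowest in young replicate 1 in 5 of 5 main classes. They made up 0.226% against 0.394% to 0.599% of progenitor UMIs in that library and the other 6, 0.270% against 0.489% to 0.617% in macrophages and 0.369% against 0.657% to 1.14% in endothelial cells. The gap was smaller in lymphocytes, with 0.286% against 0.361% to 0.548% in T cells and 0.269% against 0.318% to 0.463% in B cells. Young replicate 1 was lowest for all 9 genes in progenitors, 8 in endothelial cells, 7 in macrophages, 7 in T cells and 6 in B cells. By gene, it was lowest in 5 of 5 classes for Hspa8, Hsp90aa1, Hsph1, Dnaja1 and Dnajb1, but in 1 of 5 for Hspb1.

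A list of 19 immediate early genes, transcription factors and regulators switched on within minutes of a stimulus, moved in the same way. It took 0.942% against 2.77% to 4.83% of UMIs in progenitors, 0.739% against 2.79% to 3.76% in macrophages and 0.704% against 2.43% to 4.17% in endothelial cells, and young replicate 1 was lowest in 5 of 5 classes. The other lists did less of this: young replicate 1 was lowest in 4 of 5 classes for further Hsp70 and J-domain genes, 2 each for co-chaperones, mitochondrial and ER chaperones, 1 each for HSF regulators and the TRiC chaperonin, and 0 for further small heat shock proteins. In macrophages, where the median cell held 2968 UMIs in young replicate 1 and 5976 to 9776 elsewhere, depth moved with it as well. The part that depth or cell makeup had in this was not tested.

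**Figure D3:**
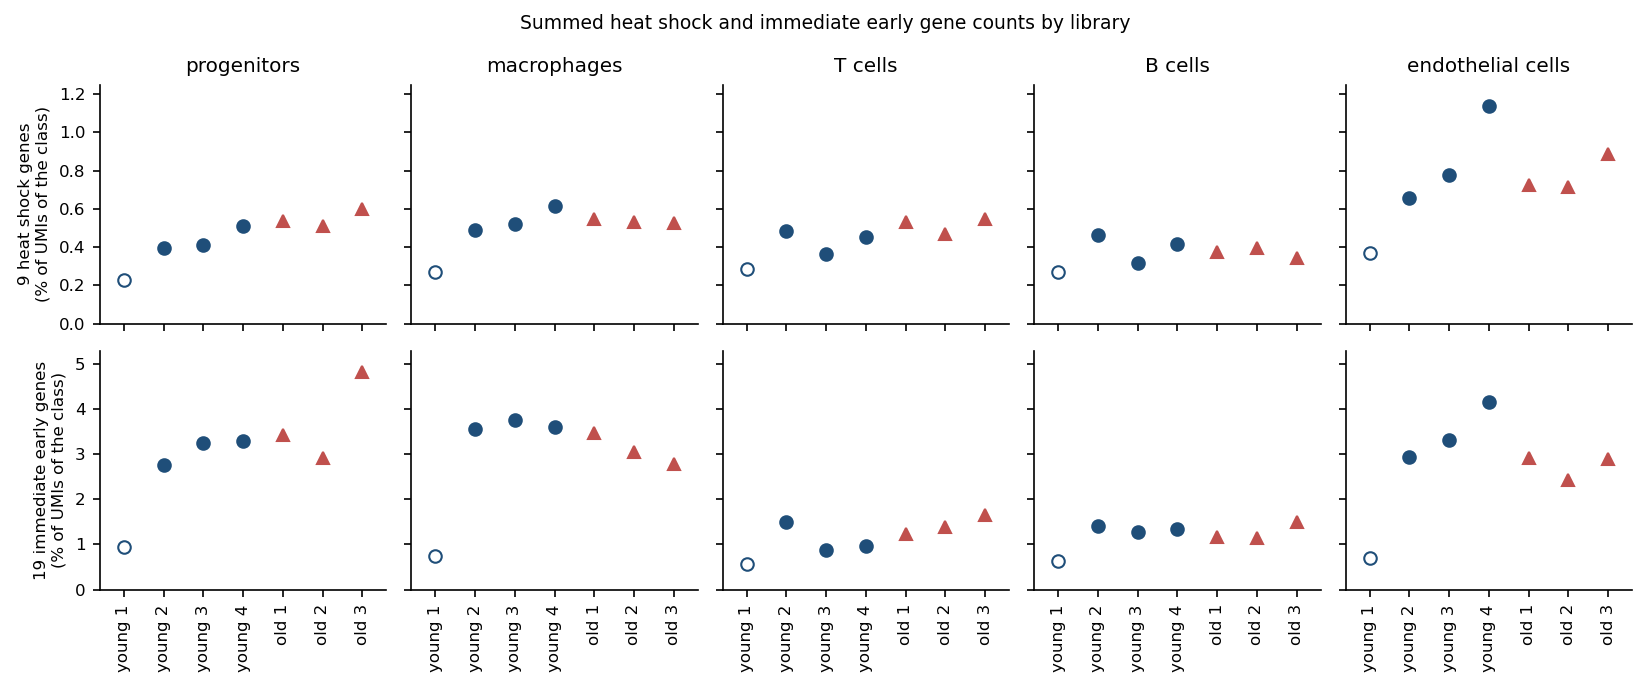
Summed counts of the 9 heat shock genes (top) and of 19 immediate early genes (bottom), as % of all UMIs of a main class, by library (circles young, open for replicate 1; triangles old). Young replicate 1 is the lowest library in all 10 panels, at 0.226% for the heat shock genes in progenitors against 0.394% or more elsewhere.

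The genes most like the heat shock genes were ranked by Pearson correlation with their mean over the 35 sums of library and main class, after each class mean was removed from log2(CPM + 1), among 6498 genes of at least 20 CPM. Jun came first with r = 0.924, followed by Ppp1r15a (0.903), which restarts translation after stress, and Fos (0.894). Atf4, the transcription factor of the integrated stress response, had 0.884, Fosb 0.882 and the survival gene Mcl1 0.879. Mafk (0.866), Junb (0.865), AK010878 (0.855) and Csrnp1 (0.848) completed the first 10. Jun, Fos, Fosb and Junb are on the immediate early list. These r values describe sums that share libraries, and much of their size came from 1 library: without young replicate 1 Jun fell to 0.683, Ppp1r15a to 0.596, Atf4 to 0.613 and Csrnp1 to 0.462.

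The levels behind this ranking show the one low library. Jun in macrophages was 430.4, 2273, 2248 and 2362 CPM in the young libraries and 2459, 1556 and 1585 CPM in the old libraries. Ppp1r15a in progenitors was 81.8, 431, 397 and 389.7 CPM in the young libraries and 417, 352 and 489.7 CPM in the old libraries. In both, young replicate 1 lay below every other library and the remaining young and old values overlapped.

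Old and young libraries were then compared for each class with edgeR's quasi-likelihood test on the summed counts, adjusted over all genes. No heat shock gene passed an adjusted p of 0.05 in any of the 12 classes tested or in all cells together. Over the 12 classes, 10 of 102 tests of a heat shock gene had an unadjusted p under 0.05 (9.80%), as did 10.0% of the tests of all genes. In the 9 classes also run with DESeq2, 7 of 80 tests were under 0.05 in edgeR and 7 in DESeq2, and DESeq2 called 0. All 9 genes passed the filter on low counts except in monocytes (7), NK cells and innate lymphocytes (8) and mast cells (6).

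For comparison, the share of all genes called was 1.83% in progenitors, 0.0761% in macrophages, 0.0179% in monocytes, 0.0324% in dendritic cells, 0.203% in T cells, 0.875% in B cells and 0.155% in endothelial cells. It was 1.33% in epithelial cells, 0.128% in cycling cells, 1.62% in all cells, and 0% in NK cells and innate lymphocytes, in mast cells and in pericytes and smooth muscle. With so few calls in most classes, 0 heat shock genes is not apart from the background. On simulated data the test found 88% (B cells) to 95% (progenitors) of changes of 2 on the log2 scale. Of changes of 1 it found 11% in B cells, 19% in macrophages, 32% in T cells, 37% in progenitors and 44% in endothelial cells. The simulation gave all genes of a class the same spread between libraries, and no library that stood apart. These shares therefore need not hold for genes as variable as Hspa1a, which ranged 111-fold between libraries in endothelial cells.

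With all libraries, progenitors had the largest median age difference of the 12 classes. All 9 genes were higher in the old libraries, with a median log2 fold change of 0.55 against 0.00 over all genes tested, and 3 of the 9 had an unadjusted p under 0.05 (17.4% of all genes did). Hspb1, whose ages did not overlap, had 0.94 (SE 0.34, edgeR adjusted p = 0.202). Hspa1a had 1.34 (SE 0.56, edgeR adjusted p = 0.259) and Hsp90aa1 0.81 (SE 0.34, edgeR adjusted p = 0.266). The other 6 genes lay between 0.06 and 0.68. Without young replicate 1, 8 of 9 were higher and the median was 0.29, with 0 calls. In that run the B cell median, -0.48, was larger in size. The progenitor median was 0.33 without old replicate 3 and from 0.64 to 0.77 without any other library. In progenitors 0 of the 9 had an unadjusted p under 0.05 without old replicate 3 or without young replicate 3. Without young replicate 1, Hsp90aa1 was 0.56, Hspb1 0.77, Hspa1a 1.04 and Dnaja1 -0.16.

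The other main classes gave mixed directions. In T cells 8 of 9 genes were higher in old libraries (median 0.36), in macrophages 6 (median 0.15), in endothelial cells 4 (median -0.09) and in B cells 3 (median -0.34), and the medians over all genes were at most 0.02 in size. Without young replicate 1 the counts were 8 (median 0.19), 4 (median -0.03), 2 (median -0.23) and 2 (median -0.48). Leaving out each library in turn, the medians ran from 0.12 to 0.52 in T cells, -0.03 to 0.28 in macrophages, -0.23 to 0.33 in endothelial cells and -0.52 to -0.06 in B cells. The lowest T cell value came without old replicate 3, the highest endothelial value without young replicate 4 and the B cell value nearest 0 without young replicate 2. T cell Hspa8, whose ages did not overlap, had 0.39 (SE 0.32, edgeR adjusted p = 0.859). B cell Hspa1a had -0.72 (SE 0.33, edgeR adjusted p = 0.617). Old and young values did not overlap for 2 of 9 genes in progenitors (Hsp90aa1 and Hspb1), where 16.4% of all genes did not, for 1 in T cells (7.5% of all genes), and for 0 in macrophages (5.02%), B cells (7.51%) and endothelial cells (8.76%). Leaving out a library can only add genes whose ages do not overlap. Without young replicate 1 no heat shock gene was added, while the shares of all genes rose to 25.9% in progenitors and 13.9% in T cells.

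**Figure D4:**
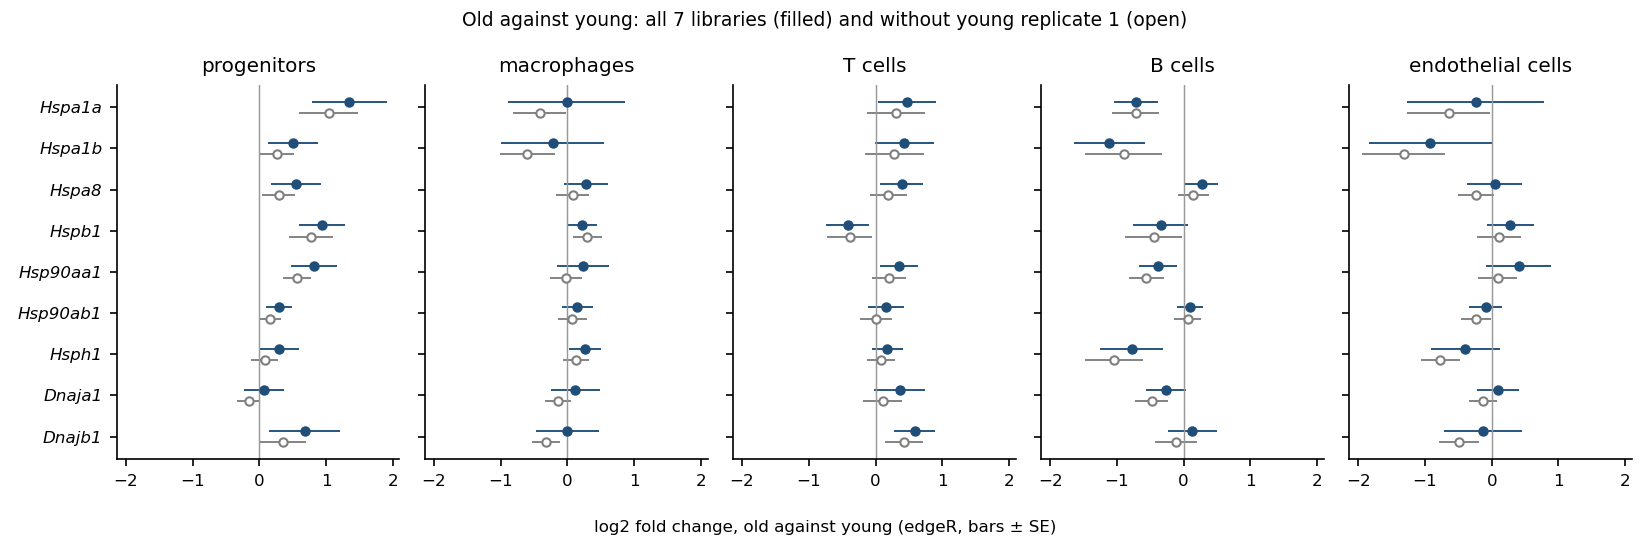
Log2 fold change of each heat shock gene, old against young, in the main classes (x axis, edgeR, bars ± SE), with all 7 libraries (filled) and without young replicate 1 (open). Progenitor values are at or above 0.06 with all libraries, and the open points lie to the left of the filled ones for all 9 genes there.

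Outside the main classes, Hspa1a in NK cells and innate lymphocytes was 26.1, 20.3, 9.59 and 11.04 CPM in the young libraries and 31.7, 32.3 and 60.8 CPM in the old libraries. The ages did not overlap, and the fold change was 1.49 (SE 0.41, edgeR adjusted p = 0.727). With no filter on low counts the adjusted p was 0.0202, the only call of a heat shock gene between ages under any alternative run. These sums rest on 5 to 78 UMIs of Hspa1a per library. The class median, 26.1 CPM, lay below the 32.6 CPM of T cells, whose share was not read as expression. Without the filter, more of all genes were also called in macrophages, T, B and endothelial cells, as given at the end. The call is therefore not read as an age difference. Hspb1 in cycling cells was 188, 70.7, 365 and 16.04 CPM in the young libraries and 16.8, 30.7 and 9.80 CPM in the old libraries, a fold change of -3.02 (SE 0.89, edgeR adjusted p = 0.207). That class joins dividing cells of several lineages, and its endothelial markers ran from 0.00247% to 0.21% of UMIs between libraries, so a different mix of cells and a different level per cell cannot be told apart there. The same holds in all cells, where 7 of 9 genes were higher in old libraries (median 0.17) with Hsp90aa1 at 0.52 (SE 0.31, edgeR adjusted p = 0.374). In all cells the count without young replicate 1 was 6 (median 0.03), and without old replicate 3 it was 4 (median -0.03). In pericytes and smooth muscle all 9 genes were higher in old libraries (median 0.41), with 0 calls. There the 9 genes summed to 0.29975% of UMIs in young replicate 1. Young replicates 2 to 4 gave 0.590% to 0.767% and overlapped the old replicates, which gave 0.640% to 0.977%. Without young replicate 1, 7 of 9 were higher (median 0.12), and without old replicate 3, 6 of 9 (median 0.09).

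Whether the age difference itself varied among the 5 main classes was tested as an interaction. It was called for 4.68% of the 13306 genes and for 0 of the 9 heat shock genes (1 at an unadjusted p under 0.05), of which Hsp90aa1 had the lowest adjusted p, 0.0893. Without young replicate 1, 1 of the 9, Hspa1a, passed with an edgeR adjusted p of 0.0442. The number of all genes called also moved between runs that left out a library, as given at the end. The 1 call is therefore not read as a result about the heat shock genes.

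The progenitor clusters were not equally represented at both ages, so a different mix of cells and a different level per cell cannot be told apart in the class sums. A cluster marked by Gsn and Dcn held 9.41% to 26.5% of young and 49.6% to 56.1% of old progenitors. Within it, Hspa1a was 31.3, 187, 86.9 and 154 CPM in the young libraries and 299, 239.5 and 547 CPM in the old libraries, and the ages did not overlap. In the cluster marked by Postn and Enpp2 it was 57.4, 438, 174 and 406 CPM in the young libraries and 413, 430.0 and 828 CPM in the old libraries, and in the Pi16 cluster 20.2, 101, 78.7 and 83.8 CPM in the young libraries and 68.96, 63.03 and 141 CPM in the old libraries, both with overlapping ages. All 7 libraries held at least 20 cells in 4 of the 6 progenitor clusters. In those, all old values exceeded all young ones in 4 for Hsp90aa1, 2 for Hspb1, 1 for Hspa8, 1 for Hspa1a and 0 for the other 5 genes. That was 3 of 9 genes in the Gsn cluster, where 8.04% of all genes did so, 3 in the Postn and Enpp2 cluster (5.55%), 1 in the Pi16 cluster (4.7%) and 1 in the cluster marked by Col3a1 and Col1a1 (6.65%). The last held only 67, 53 and 21 cells in the old libraries. Clusters share the 7 libraries, so they are not independent of each other. In 1 cluster left out here Hsp90aa1 overlapped, with 289 to 771 CPM in the young and 632 to 674 CPM in 2 old libraries. Hsp90aa1 was 197 to 693 CPM in the young and 863 to 985 CPM in the old libraries of the Gsn cluster, 184 to 767 against 843 to 1056 in the Postn and Enpp2 cluster and 313 to 642 against 719.8 to 777 in the Pi16 cluster. Hspb1 was 46.02 to 75.1 CPM in the young and 91.2 to 164 CPM in the old libraries of the Gsn cluster.

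The neighbouring chaperone systems were read from lists of their genes. Counts below are old against young in the main classes, out of the members tested. In progenitors, where 93 genes rose and 163 fell of 14000, 0 of the 83 list genes tested passed in either direction with edgeR. There 19 had an unadjusted p under 0.05, all higher in old libraries, where 17.4% of all genes were under 0.05. DESeq2, which called 6.94% of all genes there, called 9 of the 83, all higher, of which 7 were ER chaperones. The 12 chaperones of the endoplasmic reticulum (ER), the folding compartment of secreted proteins, were all higher in old progenitors (median log2 0.75, lowest edgeR adjusted p = 0.0537). In macrophages 12 of 12 were higher, in T cells 10 of 12, in endothelial cells 10 of 12 and in B cells 11 of 12. One of them passed: Pdia3, a disulfide isomerase, in B cells measured 58.4, 66.5, 53.9 and 46.2 CPM in the young libraries and 115, 118 and 184 CPM in the old libraries, and rose by 1.34 (SE 0.29, edgeR adjusted p = 0.0362). The ages did not overlap.

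Of the co-chaperones of Hsp70 and Hsp90, 15 of 18 were higher in old progenitors and 15 of 18 in old macrophages. In endothelial cells 13 of 18 were higher, in T cells 7 of 17 and in B cells 7 of 17. With edgeR 0 passed in any main class (1 with DESeq2, in progenitors). Ptges3 (p23), which stabilises Hsp90 with its client, had 0.43 (SE 0.14, edgeR adjusted p = 0.155) in progenitors, and Stip1 (Hop), which links Hsp70 to Hsp90, had 0.43 (SE 0.17, edgeR adjusted p = 0.249). The regulators Hsf1, Hsf2 and Hsbp1 gave 0 calls, with Hsf1 at 0.43 (SE 0.22, edgeR adjusted p = 0.369) in progenitors and Hsf2 at 0.43 (SE 0.29, edgeR adjusted p = 0.9996) in macrophages. Small heat shock proteins other than Hspb1 were tested for 5 of 6 genes in progenitors and gave 0 calls with edgeR and 1 with DESeq2. Hspb8 there was 65.2, 141, 77.5 and 116 CPM in the young libraries and 197, 187 and 292 CPM in the old libraries, with non-overlapping ages and a fold change of 1.19 (SE 0.34, edgeR adjusted p = 0.123). Hspb7 was at about 1 CPM or less in every library and is not interpreted.

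Among further Hsp70 and J-domain genes 8 of 13 were higher in old progenitors and 3 of 13 in macrophages, with 0 calls. Dnaja4 in T cells had 0.84 (SE 0.23, edgeR adjusted p = 0.237) and Dnajc7 in B cells 0.67 (SE 0.26, edgeR adjusted p = 0.449). For the mitochondrial chaperones, 5 of 6 were higher in old progenitors and 0 passed, with Dnaja3 at 0.38 (SE 0.15, edgeR adjusted p = 0.235) and Grpel1 at 0.33 (SE 0.13, edgeR adjusted p = 0.236). All 7 tested subunits of TRiC, the ring that folds actin and tubulin, were higher in old progenitors and in old macrophages. All 7 were lower in old T cells, and 4 of 7 were higher in old B cells and in old endothelial cells, again with 0 calls. Cct8 had 0.34 (SE 0.14, edgeR adjusted p = 0.244) in progenitors and Cct3 -0.39 (SE 0.21, edgeR adjusted p = 0.687) in T cells. Of the immediate early genes, 17 of 19 were higher in old T cells and 15 of 19 in old progenitors. In B cells 11 of 18 were higher, in macrophages 10 of 19 and in endothelial cells 8 of 19. These counts include young replicate 1, the lowest library for this list in 5 of 5 classes. With edgeR 1 passed, in T cells: Ier3, an early response gene, measured 38.2, 53.5, 28.8 and 22.5 CPM in the young libraries and 179, 212 and 91.3 CPM in the old libraries. It rose by 2.08 (SE 0.30, edgeR adjusted p = 0.0200). Its ages did not overlap, and young replicate 1 was not the lowest.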

How the data were processed

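The authors counted UMIs per gene and cell with Cell Ranger 4.0.0 on mm10, per the submitters' processing notes, and deposited whole-number counts with at least 500 UMIs per barcode. Cells needed at least 300 genes and at most 15% mitochondrial UMIs. Doublets were scored per library against simulated pairs (2.52% to 7.34% marked) and left out after clustering (scanpy 1.11.5, leidenalg 0.10.2, resolution 1, 2000 variable genes, 30 components, 15 neighbours, no batch integration). Limits for class names were set after the clusters had been seen. Counts were summed per library and class (at least 20 cells) and tested 2-sided with edgeR 4.0.16 (filterByExpr, TMM, Benjamini-Hochberg) in R 4.3.3. Library totals ranged from 52336665 to 99516882 UMIs, so sparse genes rest on few counts.

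All 9 heat shock genes are named. From each related list, the text names up to 4 genes that passed old against young in a main class, or else the 2 with the lowest p, and for likeness the 10 highest correlations. The genes and lists were chosen with earlier results of these data known. The tests were tested on simulated data with 200 changed genes. Alternatives left out each library, blocked by replicate number, used DESeq2 1.42.0 or RLE factors, changed the filters, doublets, depth and resolution, or kept the chaperones in the clustering. No library repeated another: chi-square per degree of freedom between libraries of 1 age was 18.1 or more.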

Additional observations from a re-analysis of the deposited data

How the results depend on the processing

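Of 1395 heat shock gene fold changes between ages, over 9 classes and 16 alternatives, 109 had the opposite sign, the largest of them 0.92 in size with the chosen settings, and 1 passed an adjusted p of 0.05: with no filter on low counts, 1 heat shock gene was called between ages in place of 0 (Hspa1a in NK cells and innate lymphocytes). Every other alternative run gave 0 in every class, by DESeq2 too (lowest adjusted p in progenitors 0.0916). For the interaction, leaving out each library gave 0 to 1 heat shock genes, the 1 without young replicate 1. Over the runs that left out 1 library, Dnaja1 in progenitors ran from -0.16 (without young replicate 1) to 0.24 (without young replicate 4). With the replicate block it was 0.33. The 13 class calls stayed 13 except without young replicate 4 (12) and with stricter cell filters (15, the 13 among them). The share of endothelial cells with Hspb1 was 83.7% when thinned to 2000 UMIs.

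Replicate numbers share only a number: the correlation of same-numbered libraries ran from -0.177 to 0.306, and in 0 classes were all 3 pairs over 0.1. With the replicate block, 0 heat shock genes were called by class and 0 in all cells, and the progenitor median was 0.88.

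Counts of all genes called between ages moved most. Leaving out single libraries gave 27 to 437 in progenitors (256 with all), 0 to 27 in macrophages (9), 3 to 43 in T cells (20), 24 to 224 in B cells (67), 2 to 53 in endothelial cells (18), 3 to 1157 in all cells (267) and 111 to 1013 for the interaction (623). DESeq2 gave 972, 101, 84, 215 and 2038 in progenitors, macrophages, T cells, endothelial cells and all cells. The block gave 86 in progenitors, 152 in B cells, 0 in endothelial cells and 137 in all cells. No filter gave 39, 242, 252 and 171 in macrophages, T, B and endothelial cells. Stricter cell filters gave 41, 8 and 30 in macrophages, T cells and endothelial cells, 95 in all cells and 311 for the interaction, and could not be fitted in B cells. In macrophages thinning gave 5, and resolution 2 or chaperones kept in the clustering 3 each; in T cells keeping doublets gave 32. The cause of these shifts was not tested.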
